A study of Homo sapiens with 15 samples.

Results

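The genes of homologous recombination and of the Fanconi anemia pathway were followed in RNA-seq read counts from a pair of human myeloid leukemia cell lines. The 36 members were all rows of the deposited table whose gene symbol belongs to a list of these genes, out of 26485 gene symbols in all, and each of the 36 passed the low-count filter. U937, an established line with monocytic features, was measured after 10 nM prexasertib with 350 nM LSN622666 (called the combination here), after 10 nM prexasertib alone and after diluent. ML1, an established acute myeloid leukemia line, was measured after 10 nM prexasertib and after diluent. Prexasertib inhibits the checkpoint kinase CHK1, and LSN622666 is given by code name only. Treatment lasted 24 h, and 5 µM Q-VD-OPh, which blocks caspases broadly, was present in every group, diluent included. Each of the 5 groups held 3 libraries. LSN622666 was not given alone, and ML1 had no combination group. Nothing in the labels tells separate cultures from repeat libraries, so p-values measure only the spread between these libraries, which may be technical.

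Homologous recombination repairs double-strand breaks and broken replication forks by copying an undamaged sister DNA molecule. Nucleases first resect the broken ends, the BRCA proteins and their partners prepare the exposed strand, further factors drive strand exchange with the intact copy, and helicases and nucleases then take the joined molecules apart. The Fanconi pathway deals with crosslinks between DNA strands: a core complex attaches ubiquitin to FANCD2 and FANCI, which bring nucleases and recombination proteins to the lesion. Many of these genes are transcribed mostly in cells preparing for or passing through S phase, and CHK1 restrains origin firing and entry into mitosis when replication is disturbed.

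Start-site sequences are shown for members that carried an E2F-type motif, the binding sequence of a factor family of S-phase genes, and for BRCA2, the member that rose in U937 with prexasertib. The 4 members with the motif fell in ML1 with prexasertib, as did 29 of all 36 members (80.6%) and 23.5% of all genes tested. The motif was searched as TTTCCCGC, TTTGGCGC or TTTCGCGC on both strands, from 250 bases before to 50 bases after the RefSeq start on GRCh38.p14. RefSeq windows were matched for 30 of the 36 members, and FANCI, RAD54B, RMI2, DNA2, NBN and ATAD5 had no entry. The motif stood in 4 of the 30 windows (13.3%), against 763 of 27305 windows in the whole table (2.79%). It was found at positions -172 to -165 and -46 to -39 of FANCC, at -2 to 6 of FANCD2, at 5 to 12 of EXO1 and at 22 to 29 of XRCC2, where the start is 1 and the base before it -1. Capitals mark the match, read 5′ to 3′ on the gene's own strand. Windows and strands are chr9:95317710-95317909 (minus) for FANCC, chr3:10026317-10026446 (plus) for FANCD2, chr1:241848084-241848218 (plus) for EXO1, chr7:152676113-152676261 (minus) for XRCC2 and chr13:32315388-32315507 (plus) for BRCA2, which held no match. The RefSeq start of FANCC lies inside the longer GENCODE v29 span of the gene (chr9:95099054-95426796). A match is a description of the letters only.
FANCC: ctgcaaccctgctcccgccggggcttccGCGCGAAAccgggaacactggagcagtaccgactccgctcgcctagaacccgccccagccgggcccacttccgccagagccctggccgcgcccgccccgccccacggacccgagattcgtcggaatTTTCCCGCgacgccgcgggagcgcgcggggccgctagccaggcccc
FANCD2: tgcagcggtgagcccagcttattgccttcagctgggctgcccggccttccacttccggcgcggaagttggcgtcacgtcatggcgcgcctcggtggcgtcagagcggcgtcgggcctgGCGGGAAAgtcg
EXO1: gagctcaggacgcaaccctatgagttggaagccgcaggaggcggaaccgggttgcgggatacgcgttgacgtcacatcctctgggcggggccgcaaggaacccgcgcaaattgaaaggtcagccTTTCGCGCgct
XRCC2: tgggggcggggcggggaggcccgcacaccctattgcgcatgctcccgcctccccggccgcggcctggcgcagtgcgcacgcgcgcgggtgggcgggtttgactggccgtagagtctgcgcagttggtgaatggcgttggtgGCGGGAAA
BRCA2: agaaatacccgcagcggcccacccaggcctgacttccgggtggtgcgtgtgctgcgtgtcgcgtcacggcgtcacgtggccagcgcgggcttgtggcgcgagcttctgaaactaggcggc

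Other cell cycle and promoter motifs were counted in the same windows. The CHR motif of late cell cycle genes, searched as TTTGAA on both strands, stood in 2 of the 30 windows (6.67%) and in 15.4% of all windows. A CCAAT box on either strand stood in 12 of the 30 windows (40%) and in 35.7% of all windows. Motif counts were not tested, and no overlap between the searched motifs was removed.

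Library totals ran from 49011222 to 87301014 counts, and replicates correlated at 0.982 to 0.9937 on log2 CPM. Levels of the myeloid markers differed widely, and SPI1 was at 111 to 157 CPM in U937 and 135 to 363 CPM in ML1. MPO was at 1.92 to 5.64 CPM in U937 and 349 to 1060 CPM in ML1. CSF1R was at 2.44 to 8.32 CPM in U937 and 16.2 to 99.7 CPM in ML1. CD14 was low in both lines, at 0.198 to 1.9 CPM in U937 and 0.142 to 7.67 CPM in ML1. The T cell genes CD3E and CD3D and the epithelial gene EPCAM had 0 counts in every library, and the B cell gene MS4A1 reached at most 0.0736 CPM. The summed level of the 10 myeloid markers was 1500 to 1720 CPM in U937 with the combination, 1310 to 1680 with prexasertib and 1950 to 2480 with diluent, and it was 5730 to 7770 CPM in ML1 with prexasertib and 4140 to 5300 with diluent. The 14 markers of other cells summed to 65.2 to 75.6, 48.4 to 73.9 and 64.5 to 94.5 CPM in the same U937 groups, and to 232 to 311 CPM in ML1 with prexasertib and 60.8 to 70.7 with diluent, of which PECAM1 held most. The part of these shifts in the results below was not tested.

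With diluent, the members were expressed in both lines and most were lower in U937 than in ML1. Of the 36, edgeR's quasi-likelihood F test called 22 lower in U937 and 3 higher, at a Benjamini-Hochberg adjusted p under 0.05 over all 17243 genes tested. Among all genes tested, 29.4% were called lower and 32% higher in U937. The median log2 fold change of U937 over ML1 was -0.55 over the members and 0.01 over all genes. On a scale of CPM per kilobase of exon, which allows levels of different genes to be compared, the median member stood at 7.97 in U937 and 11.2 in ML1. The ID pair gene FANCI (chr15:89243949-89317261, plus strand, GENCODE v29 on GRCh38) was the highest member per kilobase in ML1, at 35 ± 0.343 in U937 and 62.3 ± 2.11 in ML1 (SD, n = 3 each).

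FANCE, the core complex subunit that contacts FANCD2, ran against most members. FANCE had 235, 252 and 214 CPM in U937 with diluent, against 40.5, 41.7 and 42.5 CPM in ML1 with diluent. The 3 U937 libraries were all far above the ML1 libraries, a 5.63-fold higher level with a log2 fold change of 2.49 ± 0.15 (SE, adjusted p = 1.2e-10). Per kilobase of exon it was the highest member in U937, at 86.9 ± 7.05 in U937 and 15.4 ± 0.371 in ML1. FANCE lies at chr6:35452356-35467103 on the plus strand. The other members called higher were RBBP8, which encodes the resection factor CtIP, and PALB2, the bridge between BRCA1 and BRCA2. RBBP8 had 59.3, 75.5 and 69 CPM in U937 and 42.8, 48.9 and 48.2 CPM in ML1 (log2 fold change 0.54 ± 0.14). PALB2 had 51.8, 54.4 and 57.2 CPM in U937 and 44.7, 36.3 and 37.4 CPM in ML1 (0.47 ± 0.12). Libraries of the lines did not overlap for either gene, and the adjusted p was 0.0031 for RBBP8 and 0.0032 for PALB2.

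BRCA2 (chr13:32315474-32400266, plus strand), which acts on resected DNA before strand exchange, had 38.9, 41.4 and 37.5 CPM in U937 with diluent and 169, 111 and 126 CPM in ML1 with diluent. All ML1 libraries were above all U937 libraries, and the level in U937 was 3.44-fold lower (log2 fold change -1.78 ± 0.27, adjusted p = 2.2e-05). SLX4, the scaffold of structure-specific nucleases, had 23.2, 29.4 and 27.5 CPM in U937 against 77.6, 88.2 and 94.2 CPM in ML1 (-1.70 ± 0.14). RAD51D, a paralog of the BCDX2 complex, had 16.4, 18.5 and 17.9 CPM in U937 against 53.2, 49.2 and 48.6 CPM in ML1 (-1.52 ± 0.12). RAD50, the ATPase of the MRN complex, had 52.4, 46.5 and 46.8 CPM in U937 against 137, 126 and 140 CPM in ML1 (-1.47 ± 0.10). The lines were separated in every library for each of these genes, with adjusted p-values from 5.6e-10 for RAD50 to 6.5e-09 for RAD51D. RAD52, a strand annealing factor, had 8.7, 14.4 and 15.2 CPM in U937 and 20.6, 36 and 34.6 CPM in ML1 (-1.26 ± 0.23). RAD51AP1, which stimulates strand invasion, had 36.3, 31.2 and 32 CPM in U937 and 72, 70.8 and 82 CPM in ML1 (-1.18 ± 0.14). XRCC3 and the helicase gene BRIP1 were lower in U937 by 2.13-fold and 2.06-fold, again without overlap. XRCC3 had 46.9, 55.3 and 52.3 CPM in U937 and 108, 115 and 106 CPM in ML1. BRIP1 had 31.9, 27 and 31.7 CPM in U937 and 61.2, 59.5 and 66.3 CPM in ML1.

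The remaining 14 called members were lower in U937 by log2 fold changes from -0.95 for FANCA to -0.33 for DNA2. The 11 without a call were RAD51C, FANCB, FANCC, FANCL, EXO1, RAD54B, XRCC2, BARD1, MRE11A, NBN and MUS81, with log2 fold changes from -0.42 to 0.29. By role, 4 of 8 core complex genes, 2 of 2 genes of the ID pair, 3 of 5 BRCA group genes, 5 of 8 strand exchange genes, 2 of 6 resection genes and 5 of 6 dissolution and resolution genes were called lower in U937, as was ATAD5. The calls of FANCM, DNA2 and RAD54L rested on single libraries: without replicate 3 of ML1 with diluent their adjusted p was 0.052, 0.077 and 0.088. FANCM had 0.055 and RAD54L 0.095 without replicate 1 of U937 with diluent, and RAD54L 0.063 without replicate 2 of ML1 with diluent.

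**Figure D1:**
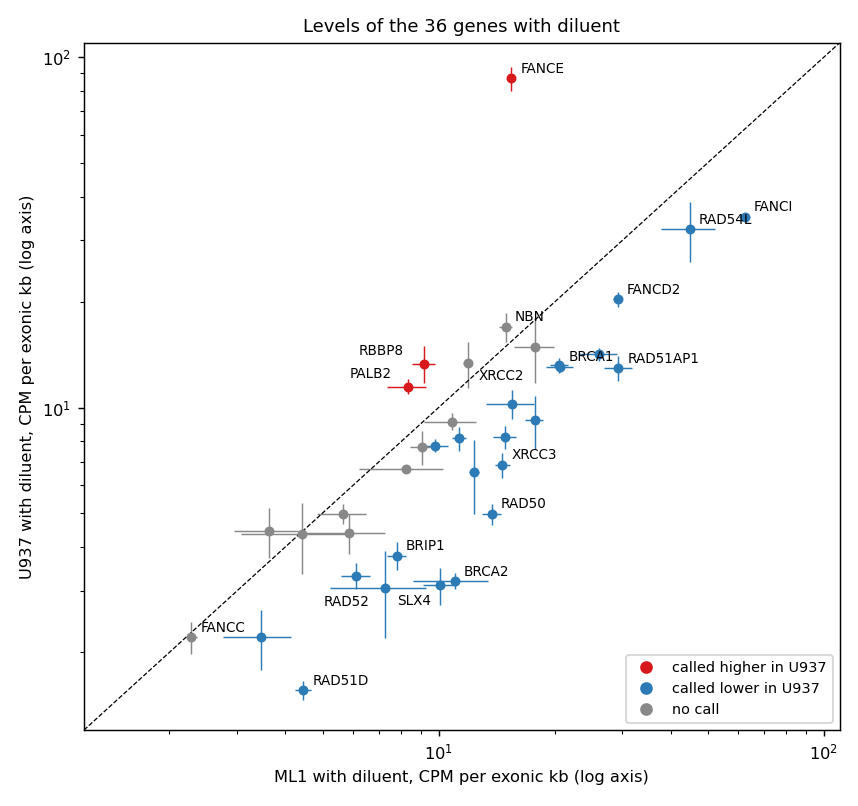
Mean level of each of the 36 genes with diluent, in CPM per kilobase of exon on log axes, in U937 (vertical) and ML1 (horizontal), with bars of 1 SD over 3 libraries and colours for the call of U937 over ML1. Points on the dashed line are equal in both lines, most lie below it, and FANCE stands far above it at 86.9 in U937 and 15.4 in ML1.

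In ML1, most members were lower with prexasertib than with diluent. The edgeR quasi-likelihood test called 29 of the 36 members lower (80.6%) and 0 higher, while 23.5% of all genes tested were called lower and 25.3% higher. The median log2 fold change was -1.19 over the members and 0.02 over all genes, with a range of -2.41 to 0.09 over the members. No member was higher at an unadjusted p under 0.05 and none was called higher by DESeq2. Libraries of the groups did not overlap for 30 members, all lower with prexasertib, where 29.1% of all genes tested were separated in that direction. The summed level of the 36 members was 1634, 1351 and 1571 CPM in ML1 with prexasertib and 3001, 3141 and 3275 CPM in ML1 with diluent. In bulk RNA, fewer cells that express a gene and less of its RNA per cell cannot be told apart.

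In the Fanconi core complex 7 of 8 genes fell, with a median log2 fold change of -1.19. FANCG had 21.6, 20.6 and 21.8 CPM in ML1 with prexasertib and 69.8, 77.8 and 75.4 CPM with diluent (log2 fold change -1.80 ± 0.11, adjusted p = 4.8e-10). FANCC had 9.07, 9.8 and 10.4 CPM with prexasertib and 30.2, 28.4 and 29 CPM with diluent (-1.58 ± 0.13). FANCB, which helps hold the ubiquitin ligase subunit FANCL in the complex, had 4.96, 3.21 and 4.64 CPM with prexasertib and 14.6, 10.2 and 14.3 CPM with diluent (-1.61 ± 0.20). All treated libraries were below all diluent libraries for the 3 genes, which were 3.49-fold, 2.99-fold and 3.05-fold lower in that order. FANCA and FANCE were each 2.29-fold lower, FANCL 1.92-fold and FANCF 1.39-fold. FANCM, the DNA translocase that anchors the complex, had 22.1, 19.7 and 21.8 CPM with prexasertib and 22.6, 31.9 and 33.2 CPM with diluent. It gave a log2 fold change of -0.46 without a call (adjusted p = 0.067), with the value of diluent replicate 1 close to the treated ones. Without that library the adjusted p was 0.023, and it was 0.028 in the fit to the groups compared only and 0.015 with the replicate block.

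Both genes of the ID pair fell. FANCI had 144, 110 and 144 CPM in ML1 with prexasertib and 467, 483 and 500 CPM with diluent, a 3.64-fold lower level (log2 fold change -1.86 ± 0.12, adjusted p = 1.7e-09). FANCD2 (chr3:10026414-10101930, plus strand), its partner and the main ubiquitylated substrate, had 85.7, 72.9 and 97.4 CPM with prexasertib and 239, 242 and 251 CPM with diluent (-1.52 ± 0.12). The diluent libraries lay close together and far above the treated ones for both.

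In the BRCA group BRCA1, BARD1, BRIP1 and PALB2 fell and BRCA2 was not called. BRCA1, whose product pairs with BARD1 as a ubiquitin ligase, had 75.8, 63.7 and 83.6 CPM in ML1 with prexasertib and 174, 190 and 204 CPM with diluent (log2 fold change -1.35 ± 0.13). BRCA2 had 194, 77.3 and 116 CPM with prexasertib and 169, 111 and 126 CPM with diluent. The treated libraries of BRCA2 spread on both sides of the diluent ones, with replicate 1 highest in both groups, and the log2 fold change was -0.07 (adjusted p = 0.86). BRIP1 was 2.87-fold lower, BARD1 2.68-fold and PALB2 1.78-fold.

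Among the strand exchange genes (RAD51C, RAD51D, XRCC2, XRCC3, RAD51AP1, RAD52, RAD54L and RAD54B) 6 of 8 fell, and the 2 lowest fold changes of all members were here. RAD54B, a chromatin-remodelling translocase, had 3.27, 4.35 and 5.71 CPM in ML1 with prexasertib and 15.2, 27.9 and 27.5 CPM with diluent, a 5.3-fold lower level (log2 fold change -2.41 ± 0.27, adjusted p = 1.1e-06). XRCC2, the partner of RAD51D, had 13.4, 12.8 and 16.8 CPM with prexasertib and 56, 58.6 and 58.7 CPM with diluent, a 4.03-fold lower level (-2.01 ± 0.17, adjusted p = 3.2e-08). RAD54L, the other translocase, had 41.8, 39.9 and 44.5 CPM with prexasertib and 118, 153 and 162 CPM with diluent (-1.78 ± 0.17). No treated library reached the lowest diluent library for any of these genes. RAD51AP1 was 2.94-fold lower, RAD51D 2-fold and XRCC3 1.55-fold. RAD51C and RAD52 were not called, at log2 fold changes of -0.28 and -0.01. RAD52 had 25.1, 31.9 and 33.5 CPM with prexasertib and 20.6, 36 and 34.6 CPM with diluent, with overlapping groups.

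Of the resection genes 5 of 6 fell. DNA2, a nuclease and helicase of long-range resection, had 15.4, 14.4 and 14.3 CPM in ML1 with prexasertib and 43.6, 47.9 and 51.3 CPM with diluent (log2 fold change -1.70 ± 0.11, adjusted p = 1.8e-09). EXO1, the other long-range nuclease, was 2.31-fold lower and RBBP8 1.95-fold lower. In the MRN complex, which senses broken ends, MRE11A (MRE11 in GENCODE v29) was 1.69-fold lower, RAD50 1.37-fold lower and NBN was not called. NBN had 105, 87.1 and 93 CPM with prexasertib and 92.7, 88.2 and 94.9 CPM with diluent, with overlapping groups and a log2 fold change of 0.05. The log2 fold changes of the 3 subunits were -0.76 ± 0.12 for MRE11A, -0.46 ± 0.10 for RAD50 and 0.05 for NBN, and differences between genes were not tested.

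Of the genes that dissolve or cut joined molecules 4 of 6 fell. The helicase gene BLM and its partners RMI1 and RMI2, which together dissolve double Holliday junctions with a topoisomerase, were 2.6-fold, 2.02-fold and 2.79-fold lower. EME1, which encodes the regulatory subunit of the MUS81 nuclease, was 2.66-fold lower, with 14.2, 14.4 and 17.2 CPM in ML1 with prexasertib and 40, 39.9 and 42 CPM with diluent. MUS81, the catalytic subunit, had 55.6, 66.3 and 68 CPM with prexasertib and 48.9, 65.4 and 64 CPM with diluent, with overlapping groups and no call (log2 fold change 0.09). SLX4 had 67.8, 81.2 and 74 CPM with prexasertib and 77.6, 88.2 and 94.2 CPM with diluent (-0.22, no call). ATAD5, which unloads the sliding clamp PCNA from DNA, had 84.7, 41.2 and 57.9 CPM with prexasertib and 105, 98.3 and 112 CPM with diluent (-0.78 ± 0.18, adjusted p = 0.0016). All 29 calls in ML1 held under every alternative run, and the 7 members without a call were BRCA2, RAD51C, FANCM, NBN, RAD52, MUS81 and SLX4.

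**Figure D2:**
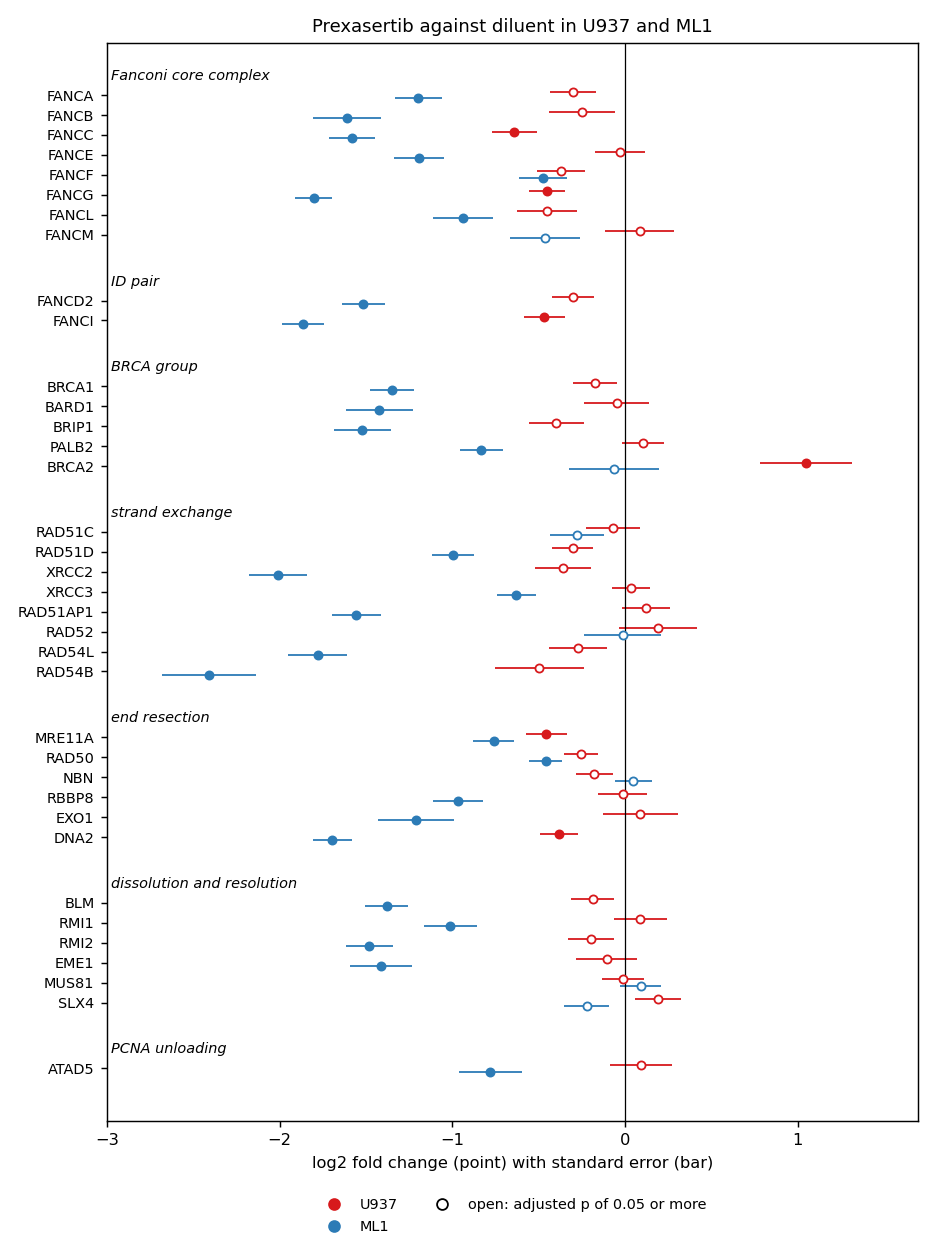
Log2 fold change of prexasertib over diluent for each of the 36 genes by role, in U937 and in ML1, with bars of 1 standard error; filled points have an adjusted p under 0.05. In ML1 29 points are filled and lie left of 0, while in U937 5 are filled left of 0 and BRCA2 is filled at 1.05.

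In U937 the same dose of prexasertib left most members without a call. Of the 36, 5 were called lower and 1 higher, where 12.8% of all genes tested were called lower and 18.3% higher. The median log2 fold change was -0.18 over the members and -0.00 over all genes. BRCA2 had 87.3, 98 and 58.4 CPM in U937 with prexasertib and 38.9, 41.4 and 37.5 CPM with diluent. All treated libraries were above all diluent libraries, the 3 diluent values lay close together, and the level was 2.07-fold higher (log2 fold change 1.05 ± 0.27, adjusted p = 0.0081). The mean was 81.2 ± 20.5 CPM in U937 with prexasertib and 39.3 ± 1.99 CPM with diluent (SD, n = 3 each), beside 135 ± 29.9 CPM in ML1 with diluent. Its partners gave no call, with log2 fold changes of 0.10 for PALB2 and -0.17 for BRCA1.

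The 5 members that fell in U937 were FANCC, FANCG, FANCI, MRE11A and DNA2. FANCC had 16.9, 16.6 and 21.1 CPM in U937 with prexasertib and 25.8, 31.6 and 27.7 CPM with diluent (log2 fold change -0.64 ± 0.13, adjusted p = 0.0018). FANCG had 36.6, 31.6 and 36.4 CPM with prexasertib and 45, 49.4 and 48.8 CPM with diluent (-0.45 ± 0.10, adjusted p = 0.0043). For both core complex genes every treated library was below every diluent library. FANCI had 213, 168 and 210 CPM with prexasertib and 270, 271 and 275 CPM with diluent (-0.47 ± 0.12, adjusted p = 0.0083). MRE11A, the nuclease subunit of MRN, had 45.7, 39.2 and 44.8 CPM with prexasertib and 64.6, 52 and 61.2 CPM with diluent (-0.46 ± 0.12, adjusted p = 0.0086). DNA2 had 29.4, 28 and 30 CPM with prexasertib and 36.3, 39.5 and 37.8 CPM with diluent (-0.38 ± 0.11, adjusted p = 0.016). Groups were again separated for these genes, and the call of DNA2 was lost in a fit to the groups compared alone (adjusted p = 0.054).

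The other 30 members had no call in the main edgeR fit in U937, with log2 fold changes from -0.50 to 0.19. DESeq2 called 5 of them lower as well, FANCF (adjusted p = 0.012), RAD50 (0.019), RAD51D (0.024), FANCL (0.025) and FANCD2 (0.037), which made 10 lower in all. At an unadjusted p under 0.05, 13 members were lower and 1 higher. Shares of all genes by this rule and by DESeq2 are not given here. Libraries did not overlap for 12 members lower with prexasertib, where 20% of all genes tested were separated in that direction. Of the strand exchange genes, and of the dissolution and resolution genes, the main edgeR fit called none. Their median log2 fold changes were -0.17 and -0.06. XRCC2, RAD54L and RAD51D were each called lower in some fits that left out a library. With the replicate block, edgeR called the strand exchange genes RAD54B (adjusted p = 0.012) and XRCC2 (0.035) lower. All 5 genes called lower in U937 were also called lower in ML1, which is 100% of the 5 in U937 and 17.2% of the 29 in ML1. In ML1, 80.6% of all 36 members were called lower. The count of members called lower in U937 was 8 without replicate 1 or replicate 2 of U937 with diluent, or without replicate 1 of U937 with prexasertib, while all 6 left-out fits called BRCA2 higher and no other member.

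**Figure D3:**
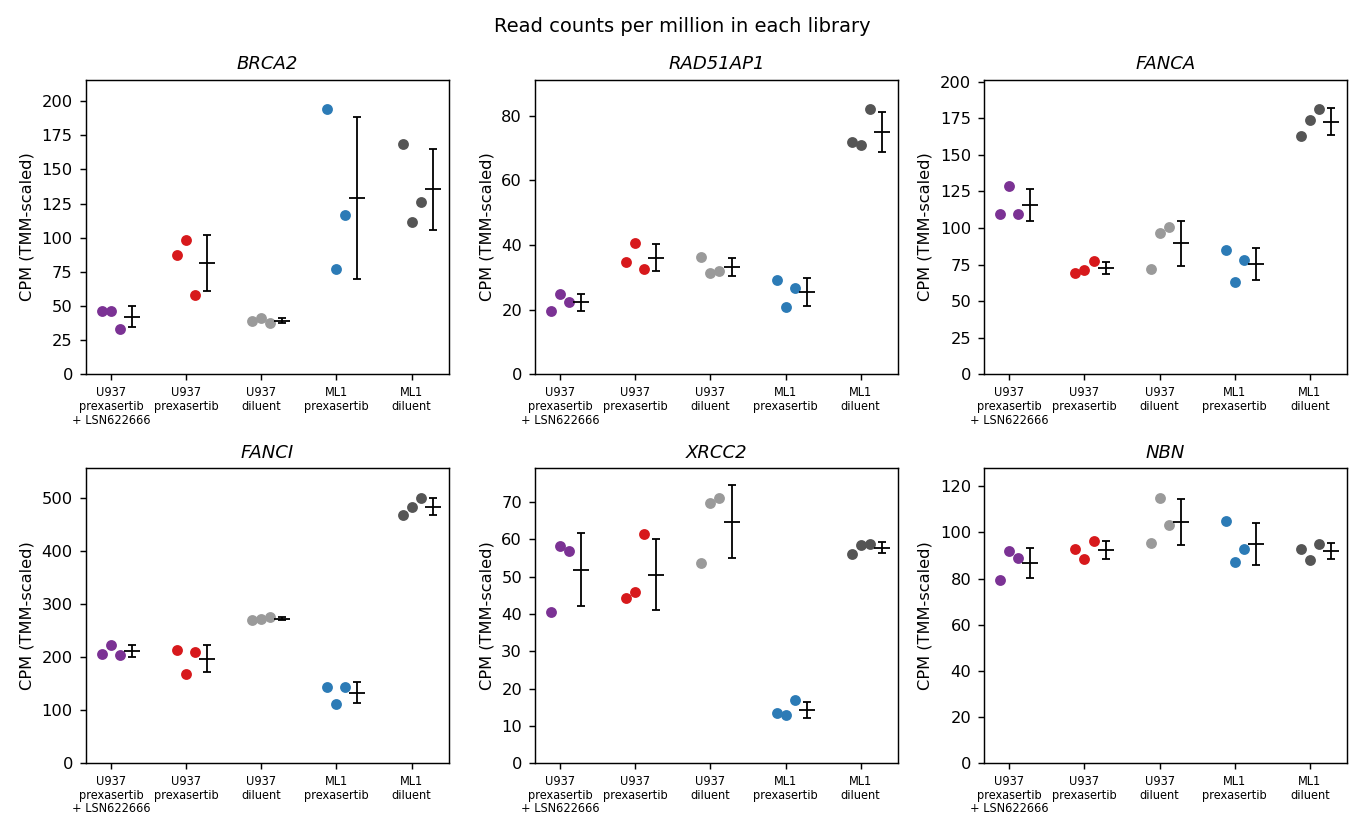
Level in CPM in every library, for members described in the text, by group; points are libraries, and the tick with its bar beside them is the group mean with 1 SD (n = 3). BRCA2 stands higher in U937 with prexasertib (58.4 to 98 CPM) than with diluent (37.5 to 41.4 CPM), while its ML1 groups overlap.

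The prexasertib response itself differed between the lines for most members. The log2 fold change in U937 minus that in ML1 was tested as an interaction, and 26 members were called higher (less of a fall, or a rise, in U937) and 0 lower, where 12.4% of all genes tested were called higher and 12.3% lower. At an unadjusted p under 0.05, 27 were higher and 0 lower, and DESeq2 also called 0 lower. The share of all genes at this unadjusted p is not given here. The median difference was 1.11 over the members and 0.03 over all genes. By role, the difference was called for 5 of 8 core complex genes, 2 of 2 of the ID pair, 5 of 5 of the BRCA group, 6 of 8 strand exchange genes, 3 of 6 resection genes and 4 of 6 dissolution and resolution genes, and for ATAD5.

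RAD54B had the largest difference, 1.91 ± 0.37 on the log2 scale (adjusted p = 0.00086). It had 13.9, 16.6 and 18.6 CPM in U937 with prexasertib and 17.1, 27.3 and 24.9 CPM with diluent. These groups overlapped and gave no call in the main edgeR fit. With the replicate block, edgeR called RAD54B lower in U937 (log2 fold change -0.46, adjusted p = 0.012). In ML1 the treated level of RAD54B was 5.3-fold lower. RAD51AP1 differed by 1.68 ± 0.20 (adjusted p = 6.1e-06). It had 34.9, 40.7 and 32.7 CPM in U937 with prexasertib and 36.3, 31.2 and 32 CPM with diluent, and 29, 20.8 and 26.6 CPM in ML1 with prexasertib and 72, 70.8 and 82 CPM with diluent. The U937 groups thus overlapped and the ML1 groups were far apart. XRCC2 differed by 1.65 ± 0.23 (adjusted p = 4.3e-05), with 44.4, 45.8 and 61.5 CPM in U937 with prexasertib and 53.6, 69.7 and 71.2 CPM with diluent. RAD54L differed by 1.51 ± 0.24 (adjusted p = 0.00013), with 77.5, 82.8 and 96.9 CPM in U937 with prexasertib and 80.7, 118 and 112 CPM with diluent. Groups of both genes overlapped in U937. FANCI, which fell in both lines, differed by 1.4 ± 0.17 (adjusted p = 9.1e-06).

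BRCA2 differed by 1.11 ± 0.37 (adjusted p = 0.037), and this was the call least steady of the 26: it was lost in 10 of 19 alternatives, with the difference between 0.89 and 1.53. The 10 members without a called difference were RAD51C, FANCF, FANCL, FANCM, MRE11A, NBN, RAD50, RAD52, MUS81 and SLX4, at -0.23 to 0.55. Of these, MRE11A fell in both lines, FANCF, FANCL and RAD50 fell in ML1, and the main edgeR fit called the others in neither line. FANCM was called lower in ML1 in the alternatives given above.

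Adding LSN622666 to prexasertib in U937 called 5 members lower and 1 higher than prexasertib alone, where 17.1% of all genes tested were called lower and 11.9% higher. With the replicate number as a block, which pairs these libraries, 10 members were called lower and 7 higher. The share of all genes called with the block is not given here, so these counts have no rate beside them. The median log2 fold change was -0.02 over the members and 0.01 over all genes. BRCA2 had 46.6, 46.4 and 33.5 CPM with the combination and 87.3, 98 and 58.4 CPM with prexasertib. Every combination library was below every prexasertib library, 1.93-fold lower on average (log2 fold change -0.95 ± 0.26, adjusted p = 0.014). The call was lost without replicate 2 of prexasertib (adjusted p = 0.062) or without replicate 3 of the combination (adjusted p = 0.064). Set against diluent, at 38.9, 41.4 and 37.5 CPM, the combination libraries of BRCA2 lay on both sides (log2 fold change 0.10, adjusted p = 0.84). These comparisons share the combination libraries.

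RAD51AP1 had 19.5, 24.7 and 22.5 CPM with the combination and 34.9, 40.7 and 32.7 CPM with prexasertib, without overlap (log2 fold change -0.70 ± 0.14, adjusted p = 0.0014). FANCA, a core complex subunit, had 110, 129 and 110 CPM with the combination and 69.1, 71.6 and 77.5 CPM with prexasertib, without overlap (0.67 ± 0.13, adjusted p = 0.0015). These calls of RAD51AP1 and FANCA held under every alternative run. With diluent, FANCA had 72, 96.3 and 100.6 CPM, all below the combination libraries. The combination over diluent gave FANCA a log2 fold change of 0.37 without a call in the main edgeR fit (adjusted p = 0.078). In edgeR, FANCA was called higher than diluent with upper-quartile factors (adjusted p = 0.026), the 5 CPM filter (0.033) and the replicate block (0.0036). RMI1 had 16.5, 26.5 and 21.5 CPM with the combination and 26.7, 35.3 and 29.4 CPM with prexasertib (-0.50 ± 0.15, adjusted p = 0.02). PALB2 had 38.8, 49.4 and 47.1 CPM with the combination and 52.9, 65.3 and 57.3 CPM with prexasertib (-0.38 ± 0.12, adjusted p = 0.029). Groups were separated for both, narrowly for RMI1. EXO1 had 28.5, 56.5 and 44.2 CPM with the combination and 48.1, 81.9 and 66.4 CPM with prexasertib (-0.60 ± 0.22, adjusted p = 0.047). Its groups overlapped, and in each of the 3 U937 groups replicate 1 was the lowest library. The calls of EXO1, RMI1 and PALB2 were lost in 7, 4 and 5 of 13 alternatives.

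With the block, the 6 calls remained and 11 were added. FANCC, FANCD2, FANCL, MRE11A, RAD52 and MUS81 were then higher with the combination, by log2 fold changes from 0.27 for MUS81 to 0.45 for FANCL. FANCB, FANCM, BARD1, BLM and RMI2 were lower, from -0.31 for RMI2 to -0.47 for BARD1. Without the block, the count of members lower was 1 without replicate 2 of prexasertib or replicate 3 of the combination, and 2 without replicate 1 of the combination. The count of members higher was 2 without replicate 1 or replicate 3 of prexasertib.

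Against diluent, the combination in U937 called 5 members lower and 0 higher, where 4.11% of all genes tested were called lower and 6.88% higher. At an unadjusted p under 0.05, 16 members were lower and 2 higher, and DESeq2 called 13 lower and 0 higher. Shares of all genes by these rules are not given here. The median log2 fold change was -0.22 over the members and 0.00 over all genes. RAD51AP1 had 19.5, 24.7 and 22.5 CPM with the combination and 36.3, 31.2 and 32 CPM with diluent (log2 fold change -0.58 ± 0.14, adjusted p = 0.015). BLM had 59.7, 72.7 and 67.6 CPM with the combination and 90.2, 96.3 and 97.8 CPM with diluent (-0.51 ± 0.12, adjusted p = 0.016). RMI2, its partner, had 23.5, 28.5 and 26.6 CPM with the combination and 40.8, 33.7 and 37.2 CPM with diluent (-0.51 ± 0.13, adjusted p = 0.023). All 3 genes were separated in every library. BRIP1 had 24.5, 20.4 and 18.2 CPM with the combination and 31.9, 27 and 31.7 CPM with diluent (-0.52 ± 0.16, adjusted p = 0.046). DNA2 had 26.4, 32.2 and 29.3 CPM with the combination and 36.3, 39.5 and 37.8 CPM with diluent (-0.37 ± 0.11, adjusted p = 0.04). Groups did not overlap for either gene. None of the 5 calls held under every alternative: those of RAD51AP1 and BLM were lost without replicate 1 of the combination (adjusted p = 0.064 for each), and those of RMI2, BRIP1 and DNA2 in 5, 7 and 8 of 13 alternatives. The count of members lower was 1 without replicate 1 of the combination, 2 without its replicate 3 or without replicate 3 of diluent, and 3 without replicate 2 of diluent.

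FANCI, FANCC, FANCG and MRE11A, called lower than diluent with prexasertib alone, were not called lower than diluent with the combination by the main edgeR fit. DESeq2 called FANCI (adjusted p = 0.016) and FANCC (0.049) lower there, and FANCI was also called with DESeq2 size factors and in the fit to the groups compared only (0.045 in each). With the replicate block, edgeR called FANCI (adjusted p = 0.004) and FANCC (0.014) lower than diluent. Side by side, the log2 fold changes over diluent with the combination and with prexasertib alone were -0.37 and -0.47 for FANCI, -0.32 and -0.64 for FANCC, -0.22 and -0.45 for FANCG, and -0.16 and -0.46 for MRE11A. The diluent libraries are shared by these comparisons. Against prexasertib, the main edgeR fit called none of the 4 different. DESeq2 called FANCC (adjusted p = 0.031), FANCG (0.045) and MRE11A (0.048) higher with the combination. In edgeR, upper-quartile factors called the same 3 genes, and a filter of at least 5 CPM in 3 libraries called FANCC and FANCG. FANCC was also called by edgeR without replicate 3 of prexasertib (adjusted p = 0.022).

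**Figure D4:**
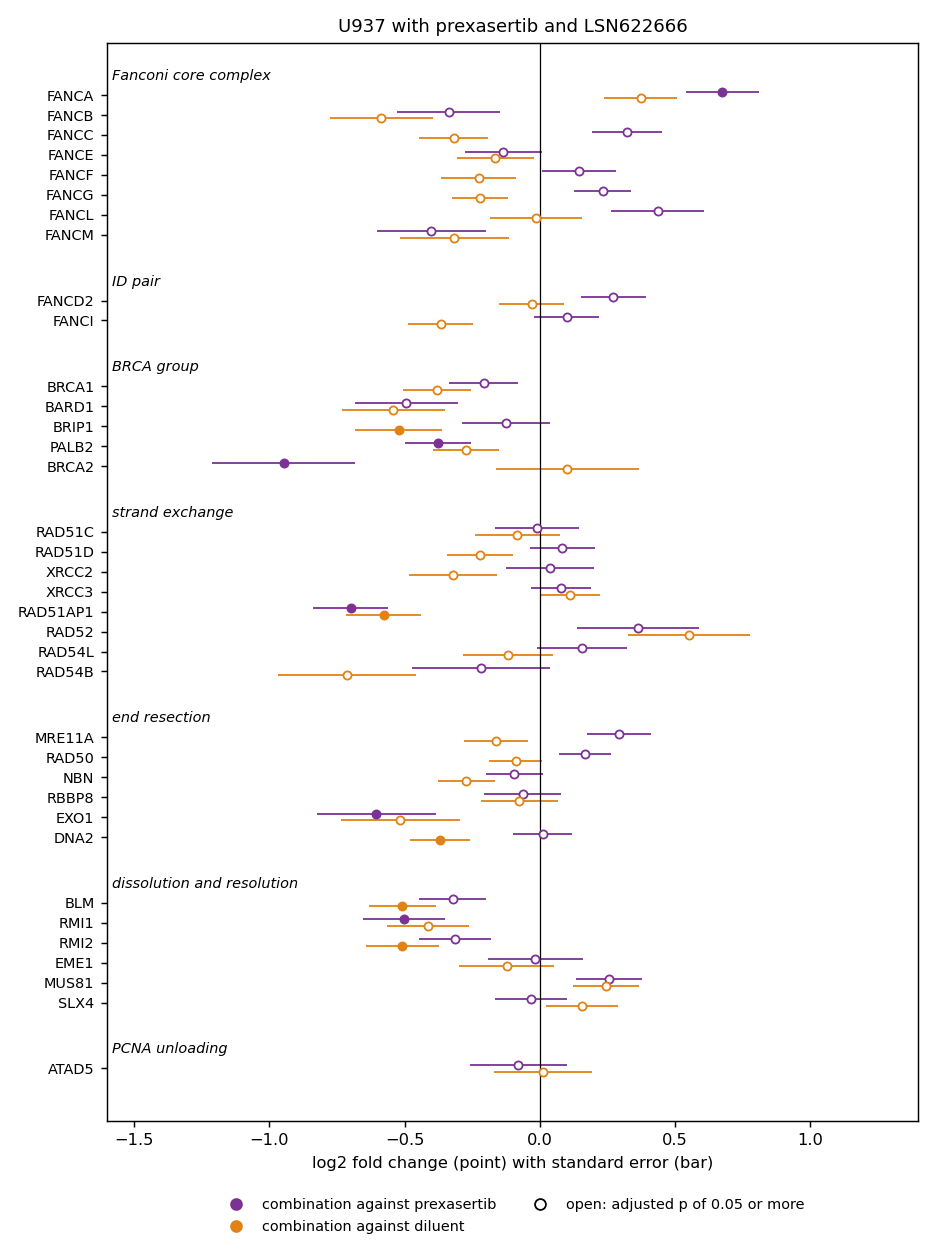
Log2 fold change of the combination over prexasertib and of the combination over diluent in U937 for each of the 36 genes by role, with bars of 1 standard error; filled points have an adjusted p under 0.05. BRCA2 is filled at -0.95 against prexasertib and open at 0.10 against diluent, and FANCA is filled at 0.67 against prexasertib. Values are from the main edgeR fit, which does not use the replicate block.

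Cell cycle genes moved in the same libraries as the members, and their part in the results was not tested. In ML1 with prexasertib, 43 of 43 S phase and DNA replication genes and 37 of 37 G2 and mitosis genes were called lower, with median log2 fold changes of -1.45 and -1.46 beside -1.19 for the members. In U937 with prexasertib, 10 of the 43 S phase genes were lower and 0 higher (median -0.19), while 20 of the 37 G2 and mitosis genes were higher and 0 lower (median 0.41). With the combination against prexasertib, 10 S phase genes were lower and 1 higher (median -0.19), and 36 G2 and mitosis genes were lower and 0 higher (median -0.82). Library by library, the median deviation of the members from the line's diluent mean, on log2(CPM + 0.5), was -1.08, -1.35 and -1.11 in ML1 with prexasertib. The S phase list gave -1.57, -1.51 and -1.35 in the same libraries. The members gave -0.40, -0.14 and -0.20 in U937 with the combination and -0.17, -0.23 and -0.11 with prexasertib, and the S phase list gave -0.65, -0.13 and -0.35 with the combination and -0.37, -0.11 and -0.06 with prexasertib. The G2 and mitosis list gave -0.55, -0.11 and -0.45 with the combination and 0.62, 0.44 and 0.19 with prexasertib.

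**Figure D5:**
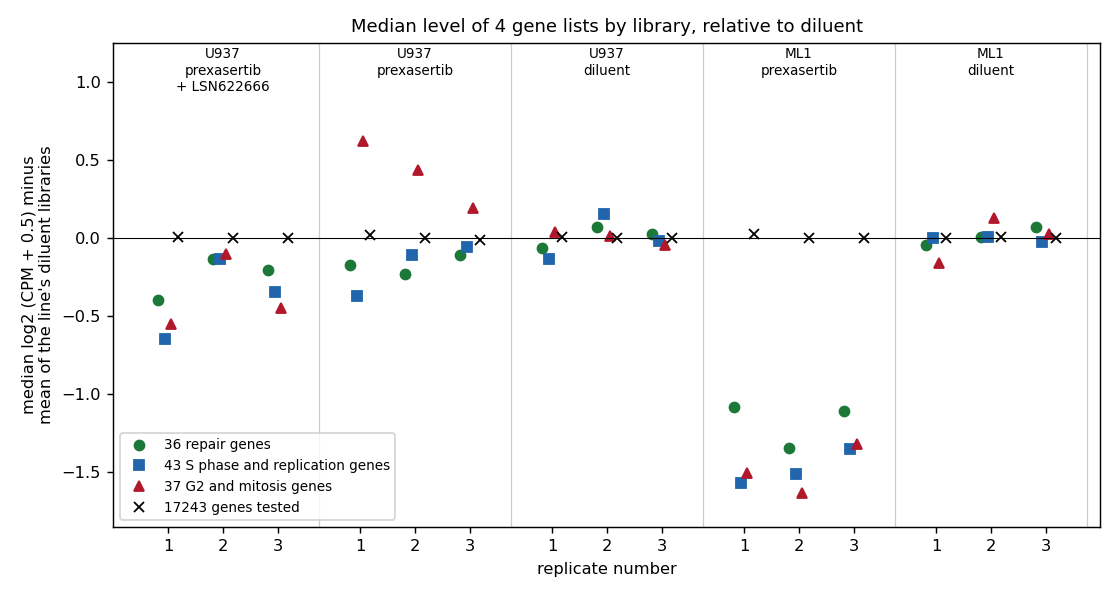
Median deviation from the line's diluent mean, on log2(CPM + 0.5), of the 36 members, of the S phase genes, of the G2 and mitosis genes and of all genes tested (crosses) in every library, by group. In ML1 with prexasertib the members and both cell cycle lists lie at or below -1.08 in each library, and in U937 with prexasertib the G2 and mitosis genes lie above 0 while the members lie just below it.

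Other genes of the same pathways were described from a list of 51, of which 50 were tested. In ML1 with prexasertib 29 of the 50 were lower and 5 higher, with a median log2 fold change of -0.49. The single-strand DNA binding subunit gene RPA1 (-1.72 ± 0.13, adjusted p = 1.2e-08) and PARPBP (-1.74 ± 0.15, adjusted p = 3.7e-08), whose product counters recombination, were among those that fell with the smallest p. REV3L, the catalytic subunit of the lesion-bypass polymerase zeta, the helicase gene HELQ and EME2, an alternative partner of MUS81, rose by 1.34 ± 0.23, 0.65 ± 0.15 and 0.62 ± 0.18. In U937 with prexasertib 8 of the 50 were lower and 10 higher (median -0.13). Those with the smallest p were SFR1 (1.30 ± 0.18), HELQ (0.96 ± 0.16) and the ubiquitin ligase gene RFWD3 (0.65 ± 0.13) among those that rose, and BRE (-0.90 ± 0.16), RPA1 (-0.68 ± 0.13) and the helicase gene WRN (-0.58 ± 0.12) among those that fell. The difference between the lines was called higher in U937 for 26 of the 50 and lower for 2, with a median of 0.57 beside 1.11 for the members; the polymerase gene POLQ (1.46) and USP1 (1.25) were among those with the smallest p, and the 2 lower were EME2 (-0.75) and BABAM1 (-0.53).

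With the combination against prexasertib, 15 of the 50 were lower and 9 higher (median -0.07). SFR1 (-1.18 ± 0.18), RFWD3 (-0.97 ± 0.14) and the crosslink nuclease gene DCLRE1A (-0.78 ± 0.11) fell, and EME2 (1.15 ± 0.18), RECQL5 (0.85 ± 0.15) and BRE (0.81 ± 0.16) rose. These comparisons share the prexasertib libraries with those of prexasertib against diluent. Against diluent the combination gave 5 lower and 4 higher (median -0.14), led by POLN (1.03 ± 0.16), EME2 (1.02 ± 0.18) and RECQL5 (0.74 ± 0.15) and by MND1 (-0.73 ± 0.13), PARPBP (-0.73 ± 0.14) and USP1 (-0.61 ± 0.13), which encodes the deubiquitylase of FANCD2. With diluent, U937 stood lower than ML1 for 20 of the 50 and higher for 9 (median -0.13). DMC1, a gene of meiotic recombination, was higher in U937 by 2.2, BRCC3 by 1.34 and RPA2 by 0.94, and C17orf53, ZGRF1 and DCLRE1A had log2 fold changes of -1.09, -1.20 and -0.73.

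Of 21 end joining genes, which serve the competing way to repair double-strand breaks, 11 were lower and 3 higher in ML1 with prexasertib (median log2 fold change -0.43), and 5 were lower and 3 higher in U937 with prexasertib (median -0.14). The combination against prexasertib gave 3 lower and 1 higher (median 0.08), and against diluent 3 lower and 2 higher (median -0.22). The difference between lines was called higher in U937 for 8 and lower for 0 (median 0.26).

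The library kit does not mark strand and the strand setting of the counting is not given in the sources used here, so reads of members that share at least 10% of their exonic length with another GENCODE v29 gene are uncertain. RAD50 shares 79.7% with AC116366.3 on the same strand, a gene that was not analysed here, and 8 members share exons with genes of the table. XRCC3 shares 76.7% of its exonic length with KLC1 on the opposite strand, and KLC1 was higher in ML1 with prexasertib (log2 fold change 0.33, adjusted p = 0.0065). RAD54B shares 59.1% with FSBP on the same strand. RAD54L shares 25.1% with LRRC41, FANCA 23.6% with ZNF276, FANCL 18.7% with VRK2, EME1 16.4% with LRRC59, MUS81 13.9% with CFL1 and FANCF 11.3% with GAS2, all on opposite strands. VRK2 was lower in U937 with prexasertib (-0.41, adjusted p = 0.016), where FANCL had a log2 fold change of -0.45 without a call (adjusted p = 0.054).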

How the data were processed

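RNA-seq was measured in 15 libraries of 5 groups, 3 each, named and numbered by the labels. The deposited table holds unnormalized read counts, 1 row per gene symbol, and every column matched a sample. Per the submitters' processing notes, TopHat2 2.0.14, Bowtie2 2.2.6 and featureCounts 1.4.6 were used with hg38. The sources used here do not give the annotation, strand setting or fragment counting, and the TruSeq v2 kit named in the labels does not mark strand.

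The counts were fitted with edgeR 4.0.16 (R 4.3.3): filterByExpr with groups (17243 genes tested), TMM scaling, 1 mean per group over all 15 libraries (10 residual degrees of freedom; the biological coefficient of variation had a median of 0.163), the robust quasi-likelihood F test, and Benjamini-Hochberg adjustment over all genes tested, with a call at an adjusted p under 0.05. CPM values are TMM-scaled, and levels per kilobase use GENCODE v29 exonic lengths on GRCh38 (24538 of 26485 symbols matched, all 36 members among them, MRE11A as MRE11). Library totals, 49011222 to 87301014 counts, set the counting precision. Reads carry no molecular identifiers. Scripts were tested on simulated data. The edgeR fit described here is called the main fit.

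Alternatives were the DESeq2 1.42.0 test, DESeq2 size factors, upper-quartile factors, no filter, a filter of 5 CPM or more in 3 or more libraries, a fit to the groups compared only, a replicate block, and leaving out each library. Deviations from group means of same-numbered libraries correlated at 0.409, 0.37 and 0.384 between the combination and prexasertib groups, all above 0.1, so the numbers pair these groups. In the other pairs of groups at least 1 correlation was lower. The main fit does not use the pairing of the combination and prexasertib libraries, which enters only with the replicate block.

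The members and gene lists were chosen with earlier results of these data known. A member was given with every library where it was called without overlap between groups, up to 8 each way per comparison by absolute log2 fold change, and for the difference between lines up to 5 by the same order. Of other recombination and Fanconi genes up to 3 called each way with the smallest p were named, except 1 gene that is not reported here and that the list totals and medians still include. Further members were given with library values for their role and chosen after their values were seen.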

Additional observations from a re-analysis of the deposited data

Results flagged for a closer look

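The effect of prexasertib differed between the lines for 26 members, by the interaction term of edgeR's quasi-likelihood test. Each value below is the log2 fold change in U937 minus that in ML1, so a positive value means a smaller fall, or a rise, in U937. The difference was positive for all 26. Apart from BRCA2, the ML1 libraries of the groups did not overlap for any of them. In ML1, 30 of all 36 members and 29.1% of all genes tested were separated with lower levels under prexasertib. The difference is computed from these same ML1 libraries, so the separation is not a separate result.

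Among the strand exchange genes the difference was 1.91 for RAD54B, 1.68 for RAD51AP1, 1.65 for XRCC2, 1.51 for RAD54L, 0.69 for RAD51D and 0.66 for XRCC3. The ID pair gave 1.4 for FANCI and 1.21 for FANCD2. In the core complex it was 1.36 for FANCB, 1.35 for FANCG, 1.16 for FANCE, 0.94 for FANCC and 0.89 for FANCA. In the BRCA group it was 1.37 for BARD1, 1.18 for BRCA1, 1.12 for BRIP1, 1.11 for BRCA2 and 0.94 for PALB2.

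The resection genes gave 1.32 for DNA2, 1.30 for EXO1 and 0.95 for RBBP8. The dissolution and resolution genes gave 1.31 for EME1, 1.29 for RMI2, 1.19 for BLM and 1.10 for RMI1, and ATAD5 gave 0.87. Adjusted p-values ran from 3.2e-06 for FANCG to 0.037 for BRCA2. The S phase and the G2 and mitosis lists also differed between the lines, with 40 of 43 and 37 of 37 genes called higher in U937, and their part in the members' differences was not tested.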

How the results depend on the processing

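In ML1 with prexasertib all 29 calls held under every alternative, and leaving out 1 library gave 29 to 30 members lower and 0 higher. Of the difference between lines 25 of 26 calls held, with 25 to 26 members higher and 0 lower without 1 library. Of U937 against ML1 with diluent 22 of 25 held, with 19 to 24 lower and 3 higher without 1 library. For U937 with prexasertib 5 of 6 held, and against 5 members lower the DESeq2 test gave 10, DESeq2 size factors 8 and the replicate block 9, while leaving out 1 library gave 5 to 8 lower and 1 higher. For the combination against prexasertib 2 of 6 held. Members higher were 1, with 5 by DESeq2, 6 with upper-quartile factors, 4 with the 5 CPM filter, 7 with the replicate block, and 1 to 2 without 1 library. Members lower were 5, with 3 for upper-quartile factors, 2 in the fit to the groups compared only, 10 with the block, and 1 to 5 without 1 library. For the combination against diluent 0 of 5 held. Members higher were 0, with 1 for upper-quartile factors, 1 for the 5 CPM filter, 3 with the block, and 0 without 1 library. Members lower were 5, with 13 by DESeq2, 2 with upper-quartile factors, 3 with the 5 CPM filter, 17 with the block, and 1 to 7 without 1 library. The cause of these changes was not tested, and shares of all genes called under the alternatives are not given here. The block lost no call in any comparison. Over the 97 single calls, 1360 alternative values kept their call, 57 kept their direction without a call and 0 reversed. Upper-quartile factors moved the median of all genes to 0.11 in the combination against diluent, and no filter moved it to 0.11 in the difference between lines.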
